A study of Mus musculus with 16 samples.

Results

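*F13a1*, *Cd163l1*, *Sox13*, *Blk* and *Maf* are described here across thymocytes with and without Tox4, as 5 of the 24984 genes in the count tables. *F13a1* and *Cd163l1* were chosen by their measured values, since both were higher in CD8 cells after Tox4 loss, and *Sox13*, *Blk* and *Maf* were added as genes of the γδ T cell programme. All 5 genes had enough counts to be tested in both cell types.

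γδ T cells arise in the thymus from the same early precursors as αβ T cells, but they build their antigen receptor from γ and δ chains and do not pass through the CD4+CD8+ double positive (DP) stage. Sox13 and Maf are transcription factors needed for γδ cells that make IL-17, and Blk is a kinase of the Src family that is also used by these cells and by B cells. Cd163l1, also called SCART1, is a scavenger receptor of the cysteine-rich family known from γδ cells, whereas F13a1 is the catalytic subunit of coagulation factor XIII, a transglutaminase best known from platelets and macrophages.

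Polyadenylated RNA of sorted mouse thymocytes was sequenced with strand information in 16 samples. DP cells came as 3 control and 3 cKO samples, and CD8 single positive cells, sorted by the study's methods as TCRβ+ and CD8+, as 5 control and 5 cKO samples. Control samples had the genotype Tox4;F/F, that is, a floxed *Tox4* allele on both chromosomes and no Cre, and cKO samples were labelled Tox4;F/F;Lck+ in DP cells and Tox4;F/F;Lck-cre in CD8 cells. The study's methods give the age of the mice as 6 to 8 weeks. Cre was driven by the proximal *Lck* promoter, which acts early in T cell development, so the deletion was designed to come before both sorted stages. How complete it was in these samples was not tested. Fragments counted on genes numbered 16524506 to 18484568 in DP control, 14583336 to 25981683 in DP cKO, 9420085 to 13530783 in CD8 control and 8514135 to 11828492 in CD8 cKO samples. The labels do not say that each sample is a separate animal, so p-values measure only the spread between these samples.

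*Tox4* itself was measured over all of its 10 exons, most of which lie outside the floxed part. On the CPM scale after TMM normalization, *Tox4* was at 149, 165 and 175 in DP control and at 128, 135 and 129 in DP cKO samples. In CD8 control samples it was at 199, 191, 204, 206 and 183 CPM, and in CD8 cKO samples at 173, 188, 178, 237 and 167 CPM. The DP groups did not overlap, while the CD8 groups did, with the library labelled CD8 cKO replicate 4 above all control samples, so the count over the whole gene does not check the labels of the CD8 samples. The cell types were as labelled, since *Rag1* and *Cd4* were abundant in DP cells and low in CD8 cells, and *Cd8a* was high in both.

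CD8 control replicate 1 stood apart, with 17741 genes detected, where the remaining CD8 samples had 13708 to 15054. The CD8 samples numbered 1 and 2 also differed from those numbered 3 to 5 in both genotypes. *Cd4* was at 61.5 and 66.4 CPM in control samples 1 and 2 but at 6.02, 3.67 and 10.5 CPM in control samples 3 to 5, and at 68.4 and 77.7 CPM against 6.38, 5.87 and 7.28 CPM in the cKO samples of the same numbers. Changes of the 5 genes in CD8 cells are therefore given for these numbers apart as well, a division made after the values were seen. Over all genes, 629 of 11227 had an unadjusted p under 0.05 between genotypes in CD8 cells and 1079 of 11748 in DP cells (edgeR), which is the background for the counts at this level given for groups of genes.

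*F13a1* was the most abundant of the 5 genes in every group and was by far highest in DP cells. It lies on chromosome 13 of mm10 from 36867178 to 37050244, on the minus strand, with 16 exons, and no other gene of the table overlaps it. In DP control samples *F13a1* was at 209, 159 and 188 CPM, and in DP cKO samples at 193, 182 and 171 CPM. In CD8 control samples it was at 9.67, 17.99, 6.83, 4.80 and 5.98 CPM, and in CD8 cKO samples at 36.7, 42.4, 35.4, 29.2 and 32.04 CPM. The DP groups overlapped fully, and every CD8 cKO sample was above every CD8 control sample and below every DP sample. Within CD8 control samples, those numbered 1 and 2, which also held the most *Cd4* mRNA, were the highest.

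Control CD8 cells had 20.5-fold less *F13a1* than control DP cells, a log2 difference of -4.36 (SE 0.27, edgeR quasi-likelihood adjusted p = 2.39e-10) in a fit of all 4 groups, where the cell types and the tables they come from cannot be told apart. Of the 12131 genes in that comparison, 45.9% were called at an adjusted p under 0.05 and a fold change of at least 1.5, and 4 of the 5 genes described here were among them. The CD8 control values also had a part in choosing *F13a1* and *Cd163l1*, so their p-values and calls in this comparison are not free of that choice. In these bulk samples, fewer cells with a transcript and less of it per cell cannot be told apart. In DP cells Tox4 loss left *F13a1* within the spread between samples (log2 fold change -0.03, SE 0.13, edgeR adjusted p = 0.970).

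In CD8 cells the log2 fold change of *F13a1* was 1.96 (SE 0.28), or 3.89-fold, which is the change that chose the gene and is given without a test. That *F13a1* and *Cd163l1*, 2 of the 5 genes, were called in this comparison follows from how they were chosen, and 0.098% of the 11227 genes tested were called. The log2 fold change was 1.504 (SE 0.27) in the samples numbered 1 and 2 and 2.46 (SE 0.17) in those numbered 3 to 5. With any one CD8 sample left out it ranged from 1.80 to 2.38.

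**Figure D1:**
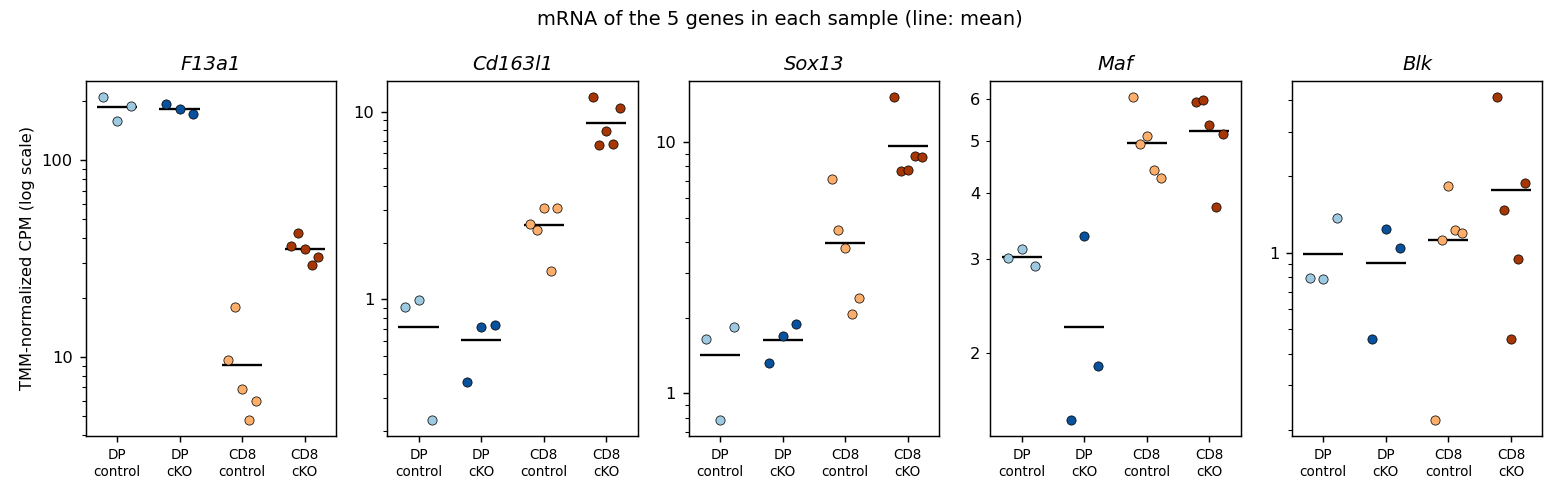
Each point is one sample, the vertical axis is TMM-normalized CPM on a log scale with its own range for each gene, and the line is the group mean. *F13a1* falls from DP to CD8 cells and lies at 29.2 to 42.4 CPM in CD8 cKO samples against 4.80 to 17.99 CPM in CD8 control samples, whereas *Cd163l1* and *Sox13* are low in DP cells.

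Because *F13a1* was abundant in DP cells, its level in each CD8 sample was set beside those of genes that mark DP cells. *F13a1* in CD8 control samples amounted to 5.22%, 9.70%, 3.69%, 2.59% and 3.22% of its mean in DP control samples, and in CD8 cKO samples to 20.2%, 23.3%, 19.5%, 16.1% and 17.6% of its mean in DP cKO samples. *Rag1*, which encodes a recombinase subunit needed to rearrange the T cell receptor genes, amounted to 1.15%, 1.5%, 0.275%, 0.150% and 0.193% of its DP mean in the control samples and to 1.15%, 1.45%, 0.359%, 0.506% and 0.341% in the cKO samples. In both genotypes the CD8 samples held a larger share of the DP level for *F13a1* than for *Rag1*, and *Rag1* separated the samples by number more than by genotype.

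Of 9 DP markers (*Cd4*, *Cd8a*, *Cd8b1*, *Rag1*, *Rag2*, *Dntt*, *Cd1d1*, *Ccr9* and *Arpp21*), all were tested in CD8 cells, 0 were called by edgeR (0 at an unadjusted p under 0.05), and their median log2 fold change was -0.08, against -0.01 over all genes tested. Their summed level in TPM, which is per exonic length, was 4189, 4228, 4058, 3715 and 3833 in control and 3591, 3702, 3571, 4051 and 3652 in cKO samples, with *Cd8b1* the most abundant in 8 of the 10 samples and *Cd8a* in the other 2, and none was at 0 in any CD8 sample. Most of the sum came from *Cd8a* and *Cd8b1*, which CD8 cells also express, at means of 1578 and 1787 TPM in CD8 control samples. *Rag1* was at a mean of 25.45 TPM there, so the sum is no measure of DP cells. Among the samples numbered 3 to 5, *Rag1*, *Dntt* and *Arpp21* were each higher in all 3 cKO samples than in all 3 control samples, with *Arpp21* at 24.5 to 27.7 CPM against 14.3 to 19.5 CPM. In CD8 cKO samples the shares of *Arpp21*, *Dntt*, *Cd4*, *Rag2* and *Rag1* (at most 9.47%) lay below the 16.1% to 23.3% of *F13a1*. Those of *Cd8a* (86.8% to 104%), *Cd8b1* (42.9% to 72.3%), *Ccr9* (45.3% to 68.3%) and *Cd1d1* (28.4% to 47.0%) lay above it. *Cd8b1* and *Cd1d1* overlapped between the numbers in both genotypes, and *Cd8a* did so in control samples, while in cKO samples it was at 1327 to 1331 CPM in numbers 1 and 2 and at 1372 to 1589 CPM in numbers 3 to 5. The part of DP cells or of DP transcripts in the level of *F13a1* was not tested further.

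**Figure D2:**
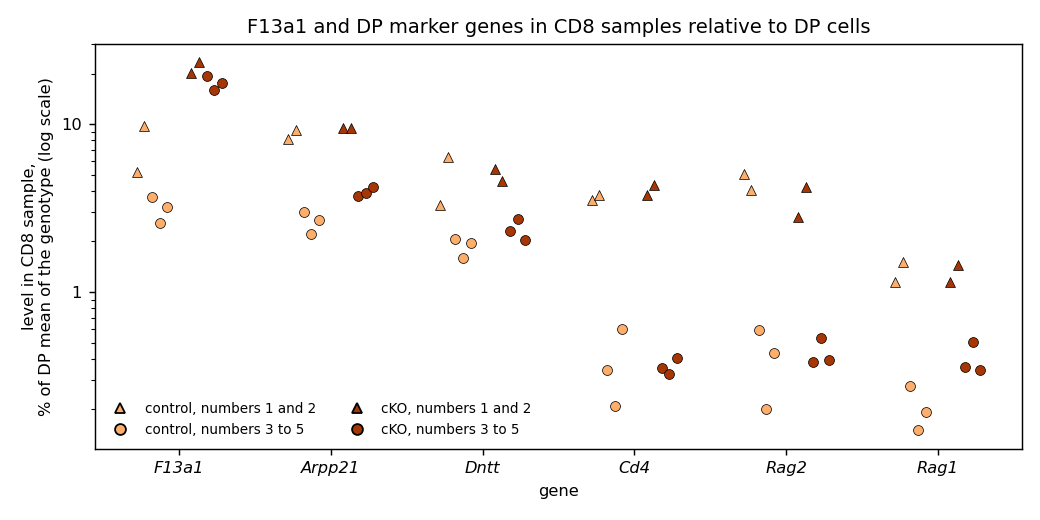
For each gene, points give the CPM of one CD8 sample as a percentage of the mean CPM of the DP samples of the same genotype, on a log scale, with triangles for the samples numbered 1 and 2 and circles for those numbered 3 to 5. *F13a1* lies between 16.1% and 23.3% in cKO samples and between 2.59% and 9.70% in control samples. Both *F13a1* and the 5 DP markers shown, of 9 examined, separate the numbers in both genotypes.

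Markers of macrophages and platelets, the cells best known for F13a1, were measured in the same samples. Of 19 macrophage genes 6 were tested in CD8 cells and 0 were called by edgeR (2 at an unadjusted p under 0.05), with a median log2 fold change of 0.36. Their summed level was 214, 114, 136, 160 and 121 TPM in control and 204, 156, 141, 187 and 129 TPM in cKO samples, most of it from *Ly6c2*, which T cells also express, and *Cd68*, and the groups overlapped. *Cd68* was at means of 32.8 and 48.0 TPM in CD8 control and cKO samples, *Cx3cr1*, chosen after its values were seen, at 5.41 and 8.5003 TPM and *Lyz2* at 2.28 and 2.92 TPM. The log2 fold changes of *Cd68*, *Cx3cr1*, *Ly6c2* and *Itgam* in CD8 cells were 0.52, 0.61, -0.10 and -0.03 (edgeR adjusted p = 0.753, 0.877, 0.994 and 0.999). Of the 6 tested, 4 had positive and 2 negative values. Of the defining macrophage genes, *Csf1r* had 11, 15, 0, 0 and 0 counts in CD8 control and 21, 17, 2, 2 and 2 counts in CD8 cKO samples, and *C1qa* had 1, 0, 1, 1 and 0 counts against 9, 5, 0, 0 and 0. *C1qb* had 6, 3, 0, 1 and 3 counts against 9, 0, 0, 1 and 1. *Cd163* had 0, 4, 1, 0 and 1 against 2, 0, 0, 0 and 0, and *Cd14* had 0, 0, 0, 1 and 3 against 0, 0, 0, 1 and 0. Of 10 platelet genes only *Itgb3* and *Itga2b* were tested, neither was called by edgeR (1 at an unadjusted p under 0.05), and their median log2 fold change was 0.51. With the replicate block neither was called and both had an unadjusted p under 0.05, as 983 of all 11227 genes did. Summed platelet genes were at 32.3, 35.0, 40.7, 37.7 and 39.7 TPM in control and at 37.2, 38.6, 50.6, 49.0 and 63.3 TPM in cKO samples, higher in the cKO sample of every number. *Itgb3* was the most abundant of them, and *Ppbp* and *Gp6* had 0 counts in all 10 CD8 samples. *Pf4* had 2 counts in CD8 control replicate 1 and 0 in the other 9, and *Gp9* was the third platelet gene by level, with at most 5 counts in a sample. In DP cells the summed level of macrophage genes was 87.7, 182.9 and 80.3 TPM in control and 68.9, 67.9 and 86.0 TPM in cKO samples, highest in control replicate 2. Between the DP groups 0 of the 13 tested were called by edgeR (6 at an unadjusted p under 0.05, median log2 fold change -0.99), with *Lyz2* at 18.1, 58.3 and 21.8 TPM in control and 9.84, 10.4 and 10.7 TPM in cKO samples.

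Other transglutaminases were measured beside *F13a1*. Of the 9 relatives found in the tables, 1, *Tgm4*, was tested in CD8 cells and *Tgm4* and *Tgm1* were tested in DP cells, and none was called in either (edgeR, 0 at an unadjusted p under 0.05). Their sum over the family was at most 5.52 TPM in any CD8 sample, with *Tgm4*, *Tgm1* and *Tgm2* the most abundant, against 3.74 to 15.1 TPM for *F13a1* in CD8 control and 22.6 to 35.0 TPM in CD8 cKO samples. Next to *F13a1* on the same strand, *Ssr1* lies 921157 bases upstream and *Nrn1* 132701 bases downstream. *Nrn1* was at a mean of 2.59 CPM in CD8 control and 5.58 CPM in CD8 cKO samples (log2 fold change 1.11, SE 0.33, edgeR adjusted p = 0.407), with log2 fold changes of 0.27 in numbers 1 and 2 and 1.69 in numbers 3 to 5, and *Ssr1* had a log2 fold change of 0.20 (edgeR adjusted p = 0.8287).

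*Cd163l1* had the reverse distribution over cell types, near the detection limit in DP cells and higher in CD8 cells. The gene lies on chromosome 7 from 140218267 to 140231145, on the plus strand, with 14 exons. *Cd163l1* was at 0.910, 0.995 and 0.229 CPM in DP control and at 0.364, 0.716 and 0.734 CPM in DP cKO samples, which is between 4 and 19 fragments a sample. In CD8 control samples it was at 2.53, 2.33, 3.06, 1.41 and 3.06 CPM, and in CD8 cKO samples at 11.9, 6.65, 7.86, 6.70 and 10.4 CPM. The DP groups overlapped, and all 5 CD8 cKO samples were above all 5 CD8 control samples, with no sign of the difference between numbers 1 and 2 and numbers 3 to 5 seen for *F13a1*.

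In control samples *Cd163l1* was 3.44-fold higher in CD8 than in DP cells, a log2 difference of 1.78 (SE 0.42, edgeR adjusted p = 0.00120). In DP cells its log2 fold change with Tox4 loss was -0.25 (SE 0.59, edgeR adjusted p = 0.938). In CD8 cells the log2 fold change that chose the gene was 1.81 (SE 0.26). It was 1.93 (SE 0.41) in the samples numbered 1 and 2 and 1.73 (SE 0.32) in those numbered 3 to 5, and between 1.66 and 1.90 with any one sample left out.

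The next gene downstream of *Cd163l1* on the same strand, after 16156 bases, is *5830411N06Rik*, which encodes the related receptor SCART2. *5830411N06Rik* was at 2.05, 0.733 and 0.344 CPM in DP control and at 1.001, 0.456 and 1.08 CPM in DP cKO samples. In CD8 control samples it was at 2.42, 3.36, 4.79, 6.40 and 7.47 CPM, and in CD8 cKO samples at 11.9, 10.6, 15.9, 6.11 and 23.2 CPM. The cKO sample was higher in 4 of the 5 CD8 pairs of a number, and replicate 4 of the cKO samples fell among the control samples. The log2 fold change in CD8 cells was 1.45 (SE 0.34, edgeR adjusted p = 0.175), short of the threshold, and with the replicate number as a block it was 1.45 (SE 0.26, edgeR adjusted p = 0.0304), which passed. In numbers 1 and 2 the log2 fold change was 1.95 and in numbers 3 to 5 it was 1.27. Reads could be split between such related genes, so both counts are uncertain to that extent. The gene upstream, the olfactory receptor gene *Olfr523*, had 0 counts in all samples.

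Among 14 scavenger receptor genes of this family in the tables, 6 were tested in CD8 cells and 0 were called by edgeR (2 at an unadjusted p under 0.05), with *5830411N06Rik* called in the fit with the replicate block. *Cd5*, *Cd6* and *Lgals3bp* were the most abundant, at means of 629, 570 and 436 TPM in CD8 control and 621, 634 and 477 TPM in CD8 cKO samples. *Cd5l* and *Msr1* had 0 counts in all CD8 samples. In DP cells 0 of 6 tested were called (2 at an unadjusted p under 0.05). Between control CD8 and control DP cells 4 of 7 tested were called, where 45.9% of all genes were, all higher in CD8 cells, namely *5830411N06Rik*, *Dmbt1*, *Lgals3bp* and *Ssc5d*. Of these *Dmbt1*, with at most 1 count in a DP control sample, was not tested within DP cells, so its direction is not independent of the count filter.

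**Figure D3:**
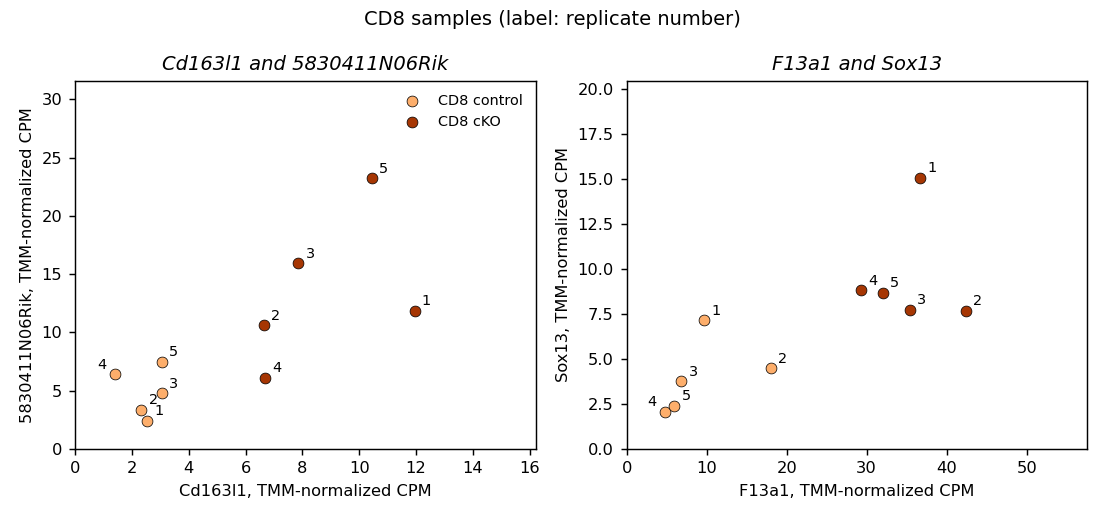
Each point is one CD8 sample, labelled with its replicate number, with the TMM-normalized CPM of one gene on each axis. For *Cd163l1* and *5830411N06Rik* the cKO sample numbered 4 lies among the control samples on the vertical axis, and for *F13a1* and *Sox13* the genotypes do not overlap on either axis.

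Of the 5 genes, *Sox13* and *Maf* encode transcription factors. *Sox13*, on chromosome 1 from 133382300 to 133424212, was at 1.65, 0.785 and 1.83 CPM in DP control and at 1.32, 1.69 and 1.89 CPM in DP cKO samples. *Sox13* in CD8 control samples was at 7.14, 4.47, 3.77, 2.07 and 2.39 CPM, and in CD8 cKO samples at 15.1, 7.69, 7.74, 8.81 and 8.69 CPM. The DP groups overlapped, and in CD8 cells the lowest cKO sample exceeded the highest control sample, an arrangement found in 0.837% of the genes tested there. The samples numbered 1 were the highest of both CD8 groups, and cKO replicate 1 was well above the rest of its group.

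The log2 fold change of *Sox13* in CD8 cells was 1.29 (SE 0.32), with higher values in the cKO sample of all 5 numbers and a p of 0.00794 by the 2-sided exact permutation test, the smallest that 5 samples against 5 allow. Over all genes it did not pass the edgeR test (adjusted p = 0.203). Since *Sox13* was chosen with earlier results of these data known, none of its p-values given here is free of that choice. Samples of the same number deviated together in CD8 cells, but so did samples of different numbers within numbers 1 and 2, so the numbers are uncertain as pairs. With the replicate number as a block *Sox13* passed (log2 fold change 1.33, SE 0.23, edgeR adjusted p = 0.0211), as 1 of 3 genes among *Sox13*, *Blk* and *Maf*, where 0.276% of all genes were called (31 against 11 without the block). DESeq2 also called it (log2 fold change 1.29, adjusted p = 0.0129). Without CD8 control replicate 1, the sample with counts on the most genes, the log2 fold change was 1.61 (edgeR adjusted p = 0.0488), and over all fits without one sample the edgeR adjusted p ran from 0.0488 to 0.507, with only this one under 0.05. Over other normalizations, filters and models it ran from 0.0129 to 0.253. It was 0.97 (edgeR adjusted p = 0.984) in the samples numbered 1 and 2 and 1.63 (edgeR adjusted p = 0.0955) in those numbered 3 to 5.

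In DP cells *Sox13* had a log2 fold change of 0.20 (SE 0.40, edgeR adjusted p = 0.928). The change in CD8 cells exceeded that in DP cells by 1.08 on the log2 scale (SE 0.54), which did not pass the test of the difference (edgeR interaction, adjusted p = 0.950). None of *Sox13*, *Blk* and *Maf* passed that test (0 at an unadjusted p under 0.05, 0 by DESeq2), which 0.107% of 12131 genes did. Control CD8 cells had 2.76-fold more *Sox13* than control DP cells (log2 difference 1.47, SE 0.40, edgeR adjusted p = 0.00420).

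*Sox4*, *Sox12* and *Sox5*, the 3 most abundant of 5 listed, had log2 fold changes of 0.27, 0.33 and 0.57 in CD8 cells, and none was called (edgeR adjusted p = 0.753, 0.778 and 0.621), although all 3 had an unadjusted p under 0.05. *Sox5*, a close relative of *Sox13* in the SoxD group, was at 5.38, 4.29, 5.71, 6.02 and 7.32 CPM in CD8 control and at 9.51, 6.48, 10.5, 6.81 and 9.62 CPM in CD8 cKO samples, so that the groups overlapped, and it had at most 5 counts in a DP sample. *Sox4* and *Sox12* were tested in DP cells and not called (0 at an unadjusted p under 0.05). Between control CD8 and control DP cells *Sox5* and *Sox12* were called as higher and *Sox4* as lower. Since *Sox5* was tested within CD8 cells but not within DP cells, its direction is not independent of the count filter. The neighbours of *Sox13* on the same strand were *Snrpe*, 179659 bases upstream, with a log2 fold change of -0.21 in CD8 cells (edgeR adjusted p = 0.979), and *Gm19461*, 112492 bases downstream, at a mean of at most 0.176 CPM in any group.

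*Maf*, on chromosome 8 from 115703253 to 115706894 with 1 exon, was at 3.02, 3.14 and 2.92 CPM in DP control and at 1.501, 3.32 and 1.89 CPM in DP cKO samples. *Maf* in CD8 control samples was at 6.04, 4.94, 5.10, 4.42 and 4.26 CPM, and in CD8 cKO samples at 5.93, 5.96, 5.35, 3.76 and 5.16 CPM. Control and cKO samples overlapped in both cell types. In CD8 cells the log2 fold change was 0.11 in the samples numbered 1 and 2 and 0.06 in those numbered 3 to 5. Over all samples the log2 fold change was -0.45 in DP cells (SE 0.35, edgeR adjusted p = 0.776) and 0.09 in CD8 cells (SE 0.20, edgeR adjusted p = 0.986), and the difference between them, 0.54 (SE 0.36), was not past the threshold (edgeR interaction, adjusted p = 0.950). *Maf* was 1.63-fold higher in control CD8 than in control DP cells (log2 difference 0.71, SE 0.26, edgeR adjusted p = 0.0255), a call that was lost when any one DP control sample was left out (adjusted p from 0.0539 to 0.0736).

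The related factors *Mafk*, *Maff* and *Mafg*, the most abundant of 5 listed, were at means of 66.4, 8.21 and 8.02 TPM in CD8 control and 66.0, 9.64 and 8.23 TPM in CD8 cKO samples. Of these 5, 3 genes were tested in each cell type and 0 were called by edgeR (0 at an unadjusted p under 0.05), and *Mafk* was lower in control CD8 than in control DP cells. On the same strand *Maf* has *Cdyl2* 861830 bases upstream, with a log2 fold change of 0.21 in CD8 cells (edgeR adjusted p = 0.877), and *4933408N05Rik* 1351775 bases downstream, with 0 counts.

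*Blk*, the kinase, was low in every group. It lies on chromosome 14 from 63372837 to 63417187. *Blk* was at 0.797, 0.785 and 1.37 CPM in DP control and at 0.455, 1.24 and 1.04 CPM in DP cKO samples. In CD8 control samples it was at 0.220, 1.12, 1.84, 1.22 and 1.20 CPM, and in CD8 cKO samples at 4.10, 1.47, 0.455, 0.940 and 1.88 CPM. The groups overlapped in both cell types, and the samples numbered 1 held the lowest CD8 control value and the highest CD8 cKO value. The log2 fold change in CD8 cells was 0.67 (SE 0.54, edgeR adjusted p = 0.979), and without both samples numbered 1 it was -0.15 (edgeR adjusted p = 0.986). It was 1.9995 (SE 0.88) in the samples numbered 1 and 2 and -0.36 (SE 0.51) in those numbered 3 to 5. Its log2 fold change in DP cells was -0.13 (SE 0.49, edgeR adjusted p = 0.965), the difference between the cell types was 0.79 (SE 0.85, edgeR interaction, adjusted p = 0.966), and control CD8 and control DP cells differed by 0.19 (SE 0.61, edgeR adjusted p = 0.804).

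B cells also express Blk, and their part in its level was not tested. Of 9 B cell genes measured, 6 were tested in CD8 cells and 0 were called by edgeR (0 at an unadjusted p under 0.05), and their summed level was 81.4, 33.0, 29.5, 23.5 and 31.1 TPM in control and 64.8, 49.1, 25.6, 37.0 and 47.1 TPM in cKO samples, with *Cd79b*, *Cd79a* and *Blnk* the most abundant. *Cd79b* was lower in control CD8 than in control DP cells, and in DP cells 0 of 6 were called (3 at an unadjusted p under 0.05). The samples numbered 1 had the highest sums of both groups, as *Blk* did in the cKO group only. Among the Src kinases *Lck*, *Fyn* and *Fgr* were the most abundant, at means of 1007, 463 and 9.26 TPM in CD8 control and 1031, 469 and 12.2 TPM in CD8 cKO samples. None of the 5 tested in each cell type was called (edgeR, 0 at an unadjusted p under 0.05 in CD8 and 2 in DP cells), and between control samples *Fyn* was higher and *Lck* lower in CD8 cells. The neighbours of *Blk*, *Tdh* 75160 bases upstream and *Gata4* 127566 bases downstream, had mean levels of at most 0.171 CPM.

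**Figure D4:**
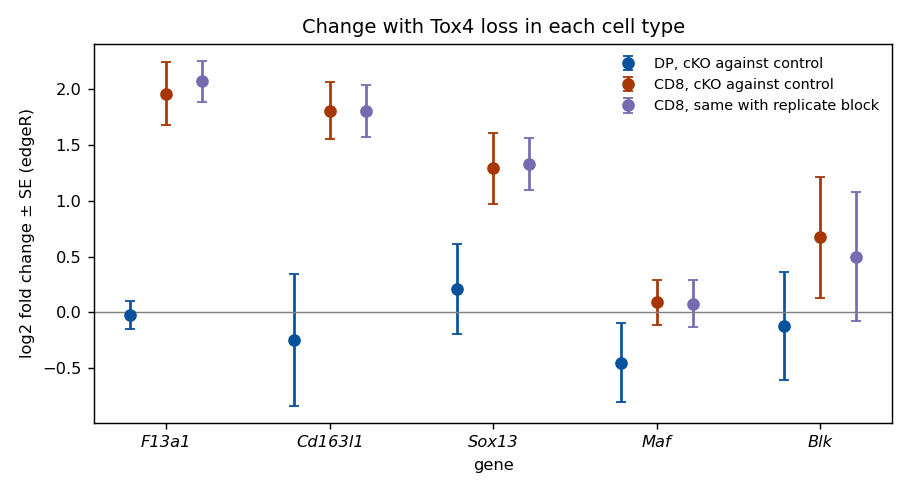
Points are log2 fold changes of cKO against control samples from edgeR and bars are standard errors, for DP cells, for CD8 cells and for CD8 cells with replicates blocked by number. In CD8 cells *F13a1*, *Cd163l1* and *Sox13* lie between 1.29 and 2.07, and in DP cells all 5 lie between -0.45 and 0.20.

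Set side by side, the 5 genes had log2 fold changes in DP cells of -0.03 for *F13a1*, -0.25 for *Cd163l1*, 0.20 for *Sox13*, -0.45 for *Maf* and -0.13 for *Blk*. Of these 0 were called by edgeR, where 0.145% of 11748 genes were, and 0 had an unadjusted p under 0.05 or passed with DESeq2. Per exonic length, the order of levels in DP control samples was *F13a1* (140 ± 24.6 TPM, SD, n = 3), *Maf* (2.46 ± 0.139), *Sox13* (1.20 ± 0.481), *Blk* (1.17 ± 0.371) and *Cd163l1* (0.614 ± 0.367), with *Sox13* and *Blk* overlapping. The order in CD8 control samples was *F13a1* (7.39 ± 4.55 TPM, SD, n = 5), *Maf* (4.31 ± 0.627), *Sox13* (3.57 ± 1.81), *Cd163l1* (2.28 ± 0.646) and *Blk* (1.44 ± 0.757), and each overlapped the next. In CD8 cKO samples the order changed to *F13a1* (29.1 ± 4.39 TPM, SD, n = 5), *Sox13* (8.80 ± 2.68), *Cd163l1* (8.23 ± 2.40), *Maf* (4.68 ± 0.880) and *Blk* (2.32 ± 1.80), where *F13a1* stood clear of *Sox13*, and *Cd163l1* clear of *Maf*. DP cKO samples had the same order of means as the DP control samples, with a mean of 134 ± 15.4 TPM (SD, n = 3) for *F13a1*. Below *F13a1* each gene there overlapped the next, so the order of *Maf*, *Sox13*, *Blk* and *Cd163l1* was not clear in DP cKO samples.

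Genes of the γδ programme other than these were examined next. For the constant and variable segments of the γ and δ receptor chains, 0 of 20 listed symbols were among the genes common to both count tables. These segments were therefore not measured here. Of 15 regulators of γδ development, 14 were tested in each cell type and 0 were called by edgeR in either (1 at an unadjusted p under 0.05 in CD8 and 3 in DP cells), with a median log2 fold change of 0.04 in CD8 and -0.07 in DP cells. *Tcf7*, *Lef1* and *Bcl11b* were the most abundant, at means of 4011, 1640 and 395 TPM in CD8 control and 3842, 1725 and 407 TPM in CD8 cKO samples. Of the 14 tested in CD8 cells, 9 had positive and 5 negative values. The gene with an unadjusted p under 0.05 there was *Sox4*, at a log2 fold change of 0.27 (edgeR adjusted p = 0.753). *Zbtb16*, the factor of innate-like T cells, named here after its values were seen, had the lowest, -0.52 (edgeR adjusted p = 0.979). In the control comparison 11 of the 15 were called, against 45.9% of all genes, namely *Egr2*, *Id2*, *Lef1*, *Rora*, *Runx3*, *Tbx21*, *Zbtb16*, *Id3*, *Egr3*, *Sox4* and *Tcf7*, 8 higher and 3 lower in CD8 cells. Of these *Zbtb16* was tested within CD8 cells but not within DP cells, so its direction is not independent of the count filter.

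Surface and effector genes of IL-17-producing γδ cells were examined in the same way. Of 15 genes measured, 11 were tested in CD8 cells, 0 were called by edgeR without the block (2 at an unadjusted p under 0.05) and *5830411N06Rik* was called with it, and their median log2 fold change was 0.13. *Il7r*, *Icos* and *Cd44*, the most abundant, had log2 fold changes of 0.19, -0.24 and 0.11 in CD8 cells, none of them called. *Il17a* had at most 3 counts in any CD8 sample, *Il17f* at most 4 and *Il23r* at most 18, in CD8 control replicate 5. *Il1r1* and *Il18r1*, receptors of cytokines that activate these cells, had log2 fold changes of -0.85 and -0.42 in CD8 cells (edgeR adjusted p = 0.976 and 0.869). Among all 11 tested, 7 had positive and 4 negative values. In DP cells 0 of 11 were called (2 at an unadjusted p under 0.05, median log2 fold change -0.75, 1 positive and 10 negative). With the replicate block, *Icos* (-0.98) and *Il7r* (-1.001) passed there (edgeR adjusted p = 0.0125 and 0.0166), although not all DP numbers paired. Between control samples 10 of 12 tested were called, against 45.9% of all genes, with *5830411N06Rik*, *Cd44*, *Cxcr6*, *Icos*, *Il18r1*, *Il1r1*, *Il7r* and *Actn2* named along with *Tmem176a* and *Tmem176b*, 8 higher and 2 lower in CD8 cells. Of these *Il1r1* was not tested within DP cells, so its direction is not independent of the count filter.

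Markers of other cells in the thymus were read in the same samples. The 16 genes of innate and NK cells summed to 1232, 1059, 1328, 1413 and 1235 TPM in CD8 control and to 1321, 1077, 1456, 1629 and 1286 TPM in CD8 cKO samples, with *Il2rb*, *Nkg7* and *Klrd1* the most abundant. The groups overlapped, and the sum was higher in the cKO sample of every number. Of 13 tested, 0 were called by edgeR (2 at an unadjusted p under 0.05), with a median log2 fold change of 0.17, 10 positive and 3 negative. Of 12 genes of early thymocytes, 6 were tested in CD8 cells and 0 were called (2 at an unadjusted p under 0.05), with a median log2 fold change of 0.26. Their sum was 419, 454, 506, 500 and 483 TPM in CD8 control and 536, 557, 550, 633 and 600 TPM in CD8 cKO samples, and so was higher in every cKO sample. Most of it came from *Notch1* and *Dtx1*, at means of 231.7 and 186.9 TPM in CD8 control and 273.5 and 223.7 TPM in CD8 cKO samples. Both were lower in DP control samples, at 114.9 and 11.34 TPM, so this sum does not mark early cells alone. Of the 6 tested, 5 had positive and 1 negative values, and *Kit* had a log2 fold change of 0.57 (SE 0.17, edgeR adjusted p = 0.404). *Notch1*, *Dtx1* and *Notch3* were the most abundant of the early genes, *Cd34* had 0 counts in 9 of the 10 CD8 samples, and the part of early cells in the results was not tested. In DP cells *Notch3* was called, with a mean of 42.7 TPM in control and 83.4 TPM in cKO samples (log2 fold change 1.01, edgeR adjusted p = 0.0415), a call lost in each of the 6 fits without one sample (adjusted p from 0.0775 to 0.229).

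Genes of mature CD8 cells, 11 in all, summed to 12660, 10710, 12680, 12280 and 11520 TPM in CD8 control and to 10090, 10300, 12380, 13970 and 11680 TPM in CD8 cKO samples, with *Cd3e*, *Cd8b1* and *Cd8a* the most abundant, and 0 were called (edgeR, 1 at an unadjusted p under 0.05). Mast cell, erythroid and epithelial genes summed to at most 2.19, 1.63 and 7.36 TPM in any CD8 sample, each time in CD8 control replicate 1, and *Hba-a1*, *Hbb-bs*, *Fcer1a* and *Cma1* had 0 counts in all CD8 samples. The most abundant of these were *Cpa3*, *Klf1* and *Epcam*, and *Epcam*, lower in control CD8 than in control DP cells, was the only one tested in CD8 cells (log2 fold change 0.12, edgeR adjusted p = 0.997). Between control CD8 and control DP cells, where 45.9% of all genes were called, edgeR called 12 innate and NK genes as higher and 1 as lower in CD8 cells (of 14 tested), 3 and 9 macrophage genes (of 13), 3 and 3 genes of early thymocytes (of 9), 0 and 8 DP markers (of 9) and 9 and 1 genes of mature CD8 cells (of 11). Only 7 innate and NK genes were tested within DP cells, and only 6 macrophage and 6 early genes within CD8 cells. Genes tested within a single cell type entered this fit through the cell type where they were abundant, so their direction is not independent of the count filter.

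The genes most like each of the 5 in pattern were found by Pearson's r of log2(CPM + 1) over the 10 CD8 samples, among the 11226 other genes tested. For *F13a1* they were *Dhdds* (r = 0.939), *Six5* (r = 0.930) and *Nfia* (r = 0.921), and for *Cd163l1* they were *Tspoap1* (r = 0.946), *B230217O12Rik* (r = 0.925) and *Psrc1* (r = 0.915). *Tspoap1* was at 25.7, 26.7, 24.1, 20.6 and 25.3 CPM in CD8 control and at 188, 170, 263, 109 and 247 CPM in CD8 cKO samples, and its mean also differed in DP cells, with 23.7 CPM in control and 133 CPM in cKO samples. In contrast to *Tspoap1*, *Cd163l1* was as low in DP cKO as in DP control samples. With each genotype's mean taken out, r fell to 0.814 for *Dhdds*, 0.738 for *Six5* and 0.441 for *Nfia* with *F13a1*, and to 0.480 for *Tspoap1*, 0.779 for *B230217O12Rik* and 0.236 for *Psrc1* with *Cd163l1*.

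*Sox13* was most like *Prob1* (r = 0.923), *Srgap3* (r = 0.899) and *Dglucy* (r = 0.897), *Maf* most like *Dock6* (r = 0.949), *Slc27a1* (r = 0.940) and *Hfm1* (r = 0.937), and *Blk* most like *Mccc1* (r = 0.871), *H2-Ob* (r = 0.863) and *2310057M21Rik* (r = 0.854). Over the same 10 samples, which share libraries and fall into 2 genotypes, r was 0.864 between *F13a1* and *Cd163l1*, 0.860 between *F13a1* and *Sox13* and 0.853 between *Cd163l1* and *Sox13*. Between these 3 genes and *Maf* it was 0.280 to 0.482, and between them and *Blk* 0.220 to 0.441. These are descriptions of 10 samples and carry no test.

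In RefSeq's table of starts (GRCm38.p6, the assembly of mm10) 3 of the 5 genes were matched, *F13a1*, *Cd163l1* and *Sox13*, which are the 3 that were higher together in CD8 cKO samples. *Blk* and *Maf* were not matched, which does not mean that RefSeq lacks them. The windows from 250 bases before to 50 bases after the start were searched on both strands for an E-box (CAGNTG or CANCTG), a SOX core (ACAAT or ATTGT) and a MAF core (TGCTGA or TCAGCA), none of which overlapped another here, and matches are in capitals. The windows that begin at the starts of the genes in the count table are given 5′ to 3′ on the strand of the gene.
*F13a1*, chr13:37050195-37050494, minus strand: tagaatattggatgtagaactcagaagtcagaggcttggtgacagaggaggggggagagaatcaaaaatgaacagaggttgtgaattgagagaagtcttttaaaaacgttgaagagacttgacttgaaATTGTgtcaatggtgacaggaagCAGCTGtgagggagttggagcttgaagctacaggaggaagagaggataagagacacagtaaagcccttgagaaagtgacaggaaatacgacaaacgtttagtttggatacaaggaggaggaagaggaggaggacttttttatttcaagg
*Cd163l1*, chr7:140218017-140218316, plus strand: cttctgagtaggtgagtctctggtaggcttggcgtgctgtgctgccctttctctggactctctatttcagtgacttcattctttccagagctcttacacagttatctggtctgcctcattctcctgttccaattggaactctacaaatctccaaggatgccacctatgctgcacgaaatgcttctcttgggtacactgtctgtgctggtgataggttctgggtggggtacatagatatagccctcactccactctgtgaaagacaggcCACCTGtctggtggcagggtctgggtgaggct
*Sox13*, chr1:133424163-133424462, minus strand: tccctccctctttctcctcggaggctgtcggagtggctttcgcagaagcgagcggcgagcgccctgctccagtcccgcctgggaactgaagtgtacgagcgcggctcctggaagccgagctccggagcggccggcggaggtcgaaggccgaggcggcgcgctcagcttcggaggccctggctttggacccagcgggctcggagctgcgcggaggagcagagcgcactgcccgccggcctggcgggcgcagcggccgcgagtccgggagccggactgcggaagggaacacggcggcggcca

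The *F13a1* window held 1 E-box and 1 SOX core, the *Cd163l1* window held 1 E-box after the start, and the *Sox13* window held none of the 3 motifs. Among all 32851 windows of this length, 51.4% held an E-box, 31.0% a SOX core and 19.5% a MAF core, so none of these matches is rare. No motif was shared by all 3 windows. They differed in base composition, with 42.7% G and C in the *F13a1* window, 50.7% in that of *Cd163l1* and 73.3% in that of *Sox13*, against a median of 52.7% over all windows. RefSeq lists a further *F13a1* start inside the gene, whose window held none of these motifs.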

How the data were processed

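The authors filtered reads with fastp (version 0.13.1), aligned them to mm10 with HISAT2 (version 2.1.0) and counted fragments per gene by strand with featureCounts (version 1.6.1), tools and build named in the submitters' processing notes, and deposited raw counts. The table of DP cells lists 24984 genes with positions and exonic lengths and that of CD8 cells 24974 of them. Computed here were CPM (TMM over all 16 samples), TPM and tests by edgeR (version 4.0.16) with the quasi-likelihood F test, TMM, filterByExpr and Benjamini-Hochberg adjustment over all genes tested, per cell type, and in a fit of all 4 groups for the control comparison and the interaction. The code was tested on simulated data. No comparison columns of the authors were used.

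A call needed an adjusted p under 0.05 together with a fold change of at least 1.5. Named genes are the 5 chosen genes, *Tox4*, in each list the 3 most abundant and every gene called with Tox4 loss, in the γδ lists and the families also those called between control cell types, the nearest same-strand neighbours, and the 3 genes most alike over the CD8 samples. Other genes named from the lists were chosen after their values were seen. The 5 genes and the lists (γδ receptor, regulators and surface genes, innate, macrophage, platelet, mast, B cell, erythroid, epithelial, early, DP and mature CD8 genes, and the families of the 5 genes) were chosen with earlier results of these data known. A few listed genes are not reported here and were left out of their lists. Low depth limits genes of few counts, and fragments without molecular identifiers are not independent molecules.

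Replicate numbers come from the labels. In CD8 cells all 5 pairs of a number correlated in their deviations from the group means (r from 0.1001 to 0.389, mean 0.309, against a mean of -0.0803 and a highest of 0.4599 for other pairs), and 6 of 10 samples correlated best with their own number, so the numbers were taken to pair the samples, though the lowest r only just passed the limit of 0.1 used. In DP cells 1 of 3 pairs did not (r = 0.0803). Among CD8 pairs of different numbers, r was 0.317 and 0.324 within numbers 1 and 2 and ran from -0.111 to 0.4599 within numbers 3 to 5. Pairing by number was therefore not fully told apart from this division of the samples. No replicates held identical counts. Alternatives were RLE and upper-quartile factors, DESeq2 (version 1.42.0), a robust fit, a replicate block, other count filters, other sets of samples and each sample left out. Tests were 2-sided, and the smallest exact permutation p was 0.1 for 3 samples against 3 and 0.0079 for 5 against 5.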

Additional observations from a re-analysis of the deposited data

Results flagged for a closer look

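*Sox13* was at 15.1 CPM (173 counts) in CD8 cKO replicate 1, far from the rest of its group, whose nearest sample had 8.81 CPM. The gap was 0.849 of the range of the group, above Dixon's 95% limit of 0.71 for 5 samples. Gaps were examined in 12 groups of 5 samples, for the 5 genes and *Tox4*, and 1 passed, where chance gives about 1 in 20. The cause was not tested. Without this sample the log2 fold change of *Sox13* in CD8 cells was 1.07 (edgeR adjusted p = 0.461).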

How the results depend on the processing

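No alternative moved *F13a1* or *Cd163l1* in CD8 cells below a log2 fold change of 1.504. The *F13a1* change was 1.504 in numbers 1 and 2 and 2.46 in numbers 3 to 5, a division chosen after seeing the data, and *Cd163l1* ranged from 1.66 to 1.93.

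*Sox13* in CD8 cells was stronger with DESeq2 (1.29, adjusted p = 0.0129), the replicate block (1.33, edgeR adjusted p = 0.0211) and the class of samples as a term (1.34, edgeR adjusted p = 0.0353, chosen after seeing the data). Without 1 sample it ranged from 1.07 to 1.61, and passed only without CD8 control replicate 1 (edgeR adjusted p = 0.0488, range to 0.507). *5830411N06Rik* also passed with DESeq2 (adjusted p = 0.00541), the block and the class term (edgeR adjusted p = 0.0304 and 0.0362), at log2 fold changes of 1.47, 1.45 and 1.51 against 1.45. In CD8 cells the block changed no other call among the 5 genes and the lists. In DP cells it changed no call of the 5 genes, and among the lists *Icos* (-0.98), *Il7r* (-1.001), *Ccr7* (-1.03) and *Gzma* (0.76) passed (edgeR adjusted p = 0.0125, 0.0166, 0.0240 and 0.0451).

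The call of *Maf* between control cell types was lost without a count filter (0.71, edgeR adjusted p = 0.0503), without both samples numbered 1 (0.63, adjusted p = 0.0555) and without any 1 DP control sample (0.68 to 0.73, adjusted p from 0.0539 to 0.0736), and the log2 difference without any 1 sample was 0.63 to 0.78. *Blk* reversed in CD8 cells without both samples numbered 1 (-0.15) and in numbers 3 to 5 (-0.36), between control cell types (-0.0417 to 0.50) and in the interaction without both samples numbered 1 (-0.0401).

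Leaving out 1 DP sample reversed the small DP changes of *F13a1* (-0.12 to 0.0640), *Cd163l1* (-0.67 to 0.0792), *Sox13* (-0.0876 to 0.42), *Blk* (-0.39 to 0.20) and *5830411N06Rik* (-0.70 to 0.66), left *Maf* negative (-0.85 to -0.23) and took the call from *Notch3* (0.915 to 1.105 against 1.01, edgeR adjusted p from 0.0775 to 0.229). Over all 16 samples r reversed for *B230217O12Rik* (-0.264), *Psrc1* (-0.274), *Dock6* (-0.472), *Slc27a1* (-0.550) and *Hfm1* (-0.614), and fell to 0.104 to 0.524 for 8 others (*Dhdds*, *Six5*, *Nfia*, *Tspoap1*, *Prob1*, *Mccc1*, *H2-Ob* and *2310057M21Rik*). The causes were not tested.

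Genes called in DP cells numbered 17, and 163 with DESeq2, 74 without a filter, 42 with all 4 groups in one fit, 132 with the replicate block and 0 to 8 without 1 sample (edgeR, 0 without DP control replicate 2, with 990 at an unadjusted p under 0.05). In DP cells 3 of 6 samples correlated best with the sample of their own number. Genes called in CD8 cells numbered 11, and 55 with DESeq2, 31 with the block, 5 without both samples numbered 1, 3 in numbers 1 and 2, 5 in numbers 3 to 5, 34 with the class term and 4 to 20 without 1 sample.

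With at least 10 counts in every sample *Cd163l1* in DP cells and between control cell types, and *Blk* in CD8 cells, between control cell types and in the interaction, gave no value because they were filtered out.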
